A study of Mus musculus with 10 samples.

Results

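Expression of 10 genes of hepatic iron handling was followed in the livers of mice with a liver-specific deletion of Thrb, the gene for thyroid hormone receptor beta. They were chosen by name: Scara5, a receptor for ferritin that was picked because it fell in this comparison, and 9 genes of the core iron pathway, namely the hepcidin genes Hamp and Hamp2, transferrin (Trf), the transferrin receptors Tfrc and Tfr2, ferroportin (Slc40a1), the ferritin subunits Fth1 and Ftl1, and the hemochromatosis gene Hfe. All 10 were among the 12234 genes that passed a filter on low counts, of 55401 genes counted. The study sequenced liver mRNA of 5 wild-type (WT) mice and 5 THRB-KO mice on standard chow, to find genes that depend on THRB. The strain is written C57Bl6/J in the sample titles and C56Bl6/J in the strain field. The knockouts came from a cross of Thrb-loxP with Afp-Cre, so recombination was driven by a promoter of the hepatic lineage and cells of other lineages in the liver keep Thrb. WT mice were littermates, received no treatment, and do not carry the deletion. The labels do not say that each library is a separate mouse, nor give sex, age or time of collection, and p-values measure the spread between these libraries.

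Iron leaves macrophages, enterocytes and hepatocytes through ferroportin, travels in plasma on transferrin, and is stored inside ferritin, a shell of heavy and light subunits. Hepcidin, a peptide hormone made by hepatocytes, binds ferroportin and has it degraded, and its gene is switched on by iron, through BMP ligands, HJV, HFE, TFR2 and SMAD proteins, and by inflammation, through IL6 and STAT3. Iron regulatory proteins bind hairpins called iron-responsive elements (IREs) in ferritin, ferroportin and transferrin receptor transcripts when iron is scarce, blocking translation from a 5′ hairpin and stabilising the transcript from 3′ hairpins.

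The IREs are shown first because they divide the members into those under this post-transcriptional control and those without it. A search of GENCODE transcripts for the loop letters CAGTGN after a bulged C and 5 bases, with 5 paired bases closing the upper stem, found a match in 3 members in the 5′ UTR and in 1 member in the 3′ UTR. Each sequence runs 5′ to 3′ on the transcript strand in GRCm38, with the bulged C and the loop in capitals.
Fth1 5′ UTR, chr19:9982732-9982760 (plus strand): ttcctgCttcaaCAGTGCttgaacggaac
Ftl1 5′ UTR, chr7:45459779-45459807 (minus strand): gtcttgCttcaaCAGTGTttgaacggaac
Slc40a1 5′ UTR, chr1:45925465-45925493 (minus strand): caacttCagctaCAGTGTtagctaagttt
Tfrc 3′ UTR, chr16:32631219-32631247 (plus strand): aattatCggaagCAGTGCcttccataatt
Tfrc 3′ UTR, chr16:32631598-32631626 (plus strand): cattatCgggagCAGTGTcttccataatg
Tfrc 3′ UTR, chr16:32631663-32631691 (plus strand): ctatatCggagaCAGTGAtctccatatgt
Tfrc 3′ UTR, chr16:32631710-32631738 (plus strand): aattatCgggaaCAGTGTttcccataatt
The same letters with a stem were present in the 5′ UTR of 28 of 20533 genes (0.136%) and in the 3′ UTR of 127 of 20897 genes (0.608%). The Fth1 and Ftl1 elements had the same upper stem and differed in the last base of the loop. The search found 4 elements in 1 stretch of the Tfrc 3′ UTR, and it misses any element outside its strict pattern. A change in translation through these elements would not appear in transcript counts, and a change in the stability of Tfrc transcripts would.

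Depth was similar in all libraries, with 26477195 to 28530198 counted reads in WT and 27779196 to 28590704 in THRB-KO, so that 3 counts corresponded to 0.105 to 0.113 CPM, the count scaled to a fixed library total. Levels below are CPM normalised with TMM factors, which correct for differences in composition. The tissue label held: the 8 hepatocyte markers were all detected and summed to between 81300 and 122000 CPM in WT and between 97000 and 111000 CPM in THRB-KO. Thrb was at 32.5 to 34.2 CPM in WT and at 24.9 to 28.8 CPM in THRB-KO, a log2 fold change of −0.32 (SE 0.067, adjusted p = 0.0359, edgeR). From which exons the remaining Thrb reads came is not visible in gene counts. Over all genes, 499 of 12234 (4.08%) passed an adjusted p of 0.15, the study's threshold, with 185 higher (1.51%) and 314 lower (2.57%) in THRB-KO, and the median log2 fold change was 5e-04. That count was 227 without WT replicate 2, 239 without WT replicate 5 and 222 without THRB-KO replicate 3.

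The Scara5 gene (ENSMUSG00000022032) occupies bases 65666403 to 65764826 of chromosome 14 (GRCm38, plus strand), and no other gene shares its exons. It encodes a class A scavenger receptor that takes up ferritin independently of transferrin. Its level was 53.4, 53.2, 42.9, 36.0 and 29.9 CPM in WT livers 1 to 5, and 12.6, 11.2, 7.68, 10.9 and 7.18 CPM in THRB-KO livers 1 to 5. The genotypes did not overlap, and the lowest WT liver was more than 2-fold above the highest THRB-KO liver. The mean went from 43.1 ± 10.4 CPM (SD, n = 5) to 9.92 ± 2.37 CPM (SD, n = 5), which was 4.35-fold lower in the fit (log2 fold change −2.12, SE 0.20). As Scara5 was chosen for this fall, it is given without a test. With each liver left out in turn its log2 fold change was between −2.22 and −2.02, which describes the same livers in which it was chosen. It was −1.91 with the level of acute-phase genes as a covariate. That level did not overlap between genotypes, so the covariate and genotype cannot be told apart.

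In bulk tissue, fewer cells of a type and less RNA per cell cannot be told apart. Scara5 is expressed by fibroblasts in many tissues, and the list of stellate cell and fibroblast markers was therefore read beside it. All 14 tested markers of 16 had a fitted log2 fold change above 0, from 0.07 to 0.80, where 50.1% of all genes were above 0. Of the 14, Des alone, encoding desmin, passed the threshold (0.67, SE 0.154, adjusted p = 0.0574, edgeR), against 4.08% of all genes. Their summed level was 119 to 191 CPM in WT and 175 to 201 CPM in THRB-KO. The part of these cells in the Scara5 values was not tested. Pi16 and Thy1, which mark fibroblasts around vessels, had at most 22 and 38 reads in any library and did not pass the filter.

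The other class A scavenger receptors did not pass the threshold. Marco, found on macrophages, was at 2.54, 10.5, 13.0, 8.36 and 62.3 CPM in WT and at 4.65, 6.94, 2.50, 6.19 and 3.85 CPM in THRB-KO. WT replicate 5 set most of that fitted difference (log2 fold change −2.00, SE 0.756, adjusted p = 0.285, edgeR). Msr1 was at 6.84 ± 1.74 and 5.93 ± 0.757 CPM (SD, n = 5), and Scara3, which lies near Scara5, at 2.07 and 2.25 CPM.

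Scara5 and Thrb are on the same chromosome, 47.6 Mb apart. Within 500 kb of Scara5 the annotation has 25 other genes, of which 9 were tested, with log2 fold changes from −0.34 to 0.95. Ephx2 alone among these 9 passed the threshold (log2 fold change 0.48, adjusted p = 0.116, edgeR), against 4.08% of all genes. It encodes soluble epoxide hydrolase and was higher in THRB-KO, opposite to Scara5. Clu, encoding clusterin, lay just outside the threshold (−0.34, adjusted p = 0.155, edgeR). After centring each gene within genotype, the profiles over the 10 livers nearest to that of Scara5 were those of Col6a3, Sumf2, Flot1, Mre11a and Lama2, with root-mean-square distances of 0.379 to 0.495 against a median of 1.34 over all genes. The distance is a description over 10 libraries and carries no test.

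**Figure D1:**
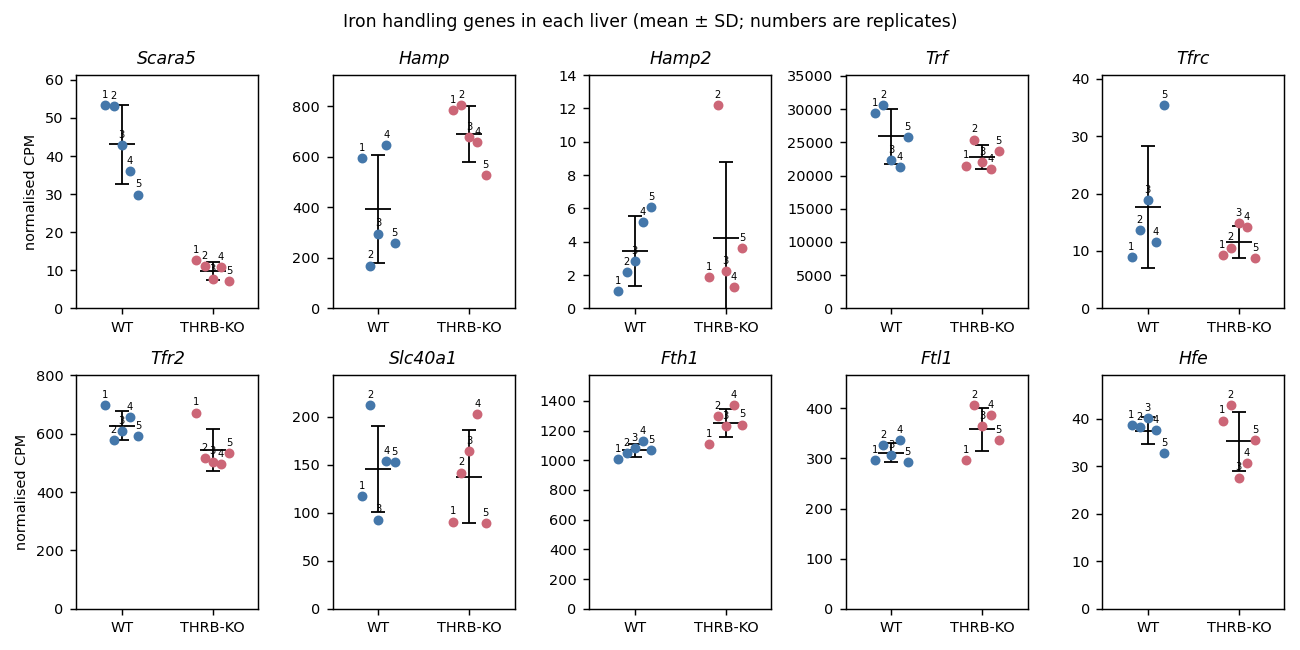
Normalised CPM of the 10 iron handling genes in each liver, with WT in blue and THRB-KO in red, replicate numbers beside the points, and black bars at the mean ± SD (n = 5). Scara5 is the gene in which every THRB-KO liver lies below every WT liver, while the other 9 overlap.

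None of the other 9 members passed the threshold in edgeR's quasi-likelihood test, and none had genotypes that did not overlap, against 4.08% and 3.64% of all genes. At an adjusted p of 0.05 the count of these members was likewise 0, against 1.35% of all genes. Hamp and Fth1 had an unadjusted p under 0.05, as did 13.6% of all genes. DESeq2 called 1 of the 9, Fth1, against 7.24% of all genes. Leaving out THRB-KO replicate 1 gave 1 call, Tfr2, against 5.47% of all genes.

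Hepcidin is encoded in the mouse by Hamp and by a near-identical copy, Hamp2, 17687 bases away on chromosome 7, which has little or no known activity on iron. Hamp (ENSMUSG00000050440) lies at 30942368 to 30944032 and Hamp2 (ENSMUSG00000056978) at 30922372 to 30924681, both on the minus strand of GRCm38. Their transcripts were identical at 388 of 410 aligned bases (94.6%), with a longest identical run of 87 bases, and reads that matched both equally well were not counted, so the values of both are uncertain. Hamp2 also shares 89 bases of exon with Gm44662 on the other strand, from which the counting without strand did not separate it.

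Hamp was at 595, 169, 296, 647 and 259 CPM in WT livers 1 to 5 and at 784, 804, 677, 659 and 528 CPM in THRB-KO livers 1 to 5. Of the THRB-KO livers, 4 were above all WT livers, the remaining one lay within the WT range, and the WT livers differed among themselves by more than the THRB-KO livers did. The mean was 393 ± 214 CPM in WT and 690 ± 111 CPM in THRB-KO (SD, n = 5), a log2 fold change of 0.81 (SE 0.339) that did not pass the threshold (adjusted p = 0.331, edgeR). It was 0.62 without WT replicate 2 and 1.07 without WT replicate 4.

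Hamp2 was at 1.02, 2.17, 2.82, 5.16 and 6.06 CPM in WT and at 1.88, 12.2, 2.23, 1.29 and 3.61 CPM in THRB-KO. THRB-KO replicate 2 stood above the rest and the genotypes overlapped (log2 fold change 0.29, SE 0.67, adjusted p = 0.906, edgeR). Without that liver the sign turned (−0.61, adjusted p = 0.613). Hamp2 made up 1.09% ± 0.777 of the reads of both genes in WT and 0.587% ± 0.541 in THRB-KO (SD, n = 5), which did not differ beyond the spread (exact permutation test, two-sided, p = 0.29, 0.43 adjusted over 3 tests on summed counts or ratios). For both genes summed, log2 CPM was 8.45 ± 0.818 in WT and 9.42 ± 0.245 in THRB-KO (SD, n = 5), a difference of 0.972 with an unadjusted p of 0.04 in the exact permutation test and of 0.12 adjusted over the 3 tests. Unadjusted, that p was between 0.056 and 0.087 without WT replicate 2 (difference 0.713) or without THRB-KO replicate 1 (0.923), 2 (0.91), 3 (0.976) or 4 (0.986).

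The BMP-SMAD branch upstream of hepcidin had 19 of 20 listed genes tested. None passed the threshold, 15 had a fitted log2 fold change above 0, as did 50.1% of all genes, and the median was 0.14. Id1, a direct target gene of SMAD signalling and the gene of the list with the largest fitted change, was at 5.07, 3.11, 3.11, 7.27 and 2.54 CPM in WT and at 8.37, 10.2, 15, 7.02 and 3.82 CPM in THRB-KO. In THRB-KO, 3 livers were above all WT livers, and the other 2 lay within the WT range (log2 fold change 1.08, SE 0.377, adjusted p = 0.242, edgeR). The rest of this paragraph gives genes singled out after their values were seen. Atoh8, a transcription factor that responds to BMP6 and iron, was at 13.7 ± 4.16 and 22.4 ± 6.63 CPM in WT and THRB-KO (SD, n = 5; log2 fold change 0.70, adjusted p = 0.247, edgeR). Smad6, an inhibitor of the pathway that is itself its target, was at 6.66 ± 0.645 and 8.64 ± 1.40 CPM (0.37, adjusted p = 0.196, edgeR). Bmp6, the ligand that rises with liver iron and is made by sinusoidal endothelial cells, was at 3.66 ± 0.769 and 5.10 ± 1.45 CPM (0.48, adjusted p = 0.332, edgeR). Id1 was called without WT replicate 4 (1.36, adjusted p = 0.118) or THRB-KO replicate 5 (1.27, adjusted p = 0.117), and Smad6 without THRB-KO replicate 2 (0.45, adjusted p = 0.0805, edgeR for all). Over all genes those fits called 509 of 12182, 390 of 12173 and 611 of 12170. DESeq2 called Id1, Atoh8 and Smad6 of the 19 tested genes, with adjusted p-values of 0.0466, 0.0734 and 0.107, against 7.24% of all genes. Hjv, the BMP co-receptor, and Tmprss6, the protease that cleaves it, had log2 fold changes of −0.04 (adjusted p = 0.936) and 0.10 (adjusted p = 0.664). The 9 sinusoidal endothelial markers, the source cells of Bmp6, summed to 238 to 295 CPM in WT and 268 to 333 CPM in THRB-KO, with 7 fitted higher and none called, and their part in the Bmp6 values was not tested.

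In the inflammatory branch, none of the 7 tested genes of the IL6-STAT3 list passed the threshold, 6 of them had a fitted change below 0, and Stat3 had the largest (−0.26, adjusted p = 0.634, edgeR). Il6 itself had at most 3 reads in any library. Of 17 tested acute-phase genes, 11 were lower in THRB-KO and none higher, against 2.57% lower over all genes, a count that was 7 without WT replicate 5 and 6 without THRB-KO replicate 3. They were Saa1, Saa2, Saa4, Orm1, Orm2, Lcn2, Apcs, Itih3, Itih4, Serpina3n and Mt1, with log2 fold changes from −6.06 for Saa2 to −0.98 for Itih4. The mean log2 CPM of the list was 8.5 to 10.3 in WT and 6.93 to 8.32 in THRB-KO, without overlap. Hamp, a gene that the acute-phase response can induce, had higher fitted levels in the genotype with lower acute-phase transcripts. With the acute-phase level as a covariate, the log2 fold change of Hamp was 0.28 (adjusted p = 0.999), a value in which the covariate and genotype cannot be told apart.

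**Figure D2:**
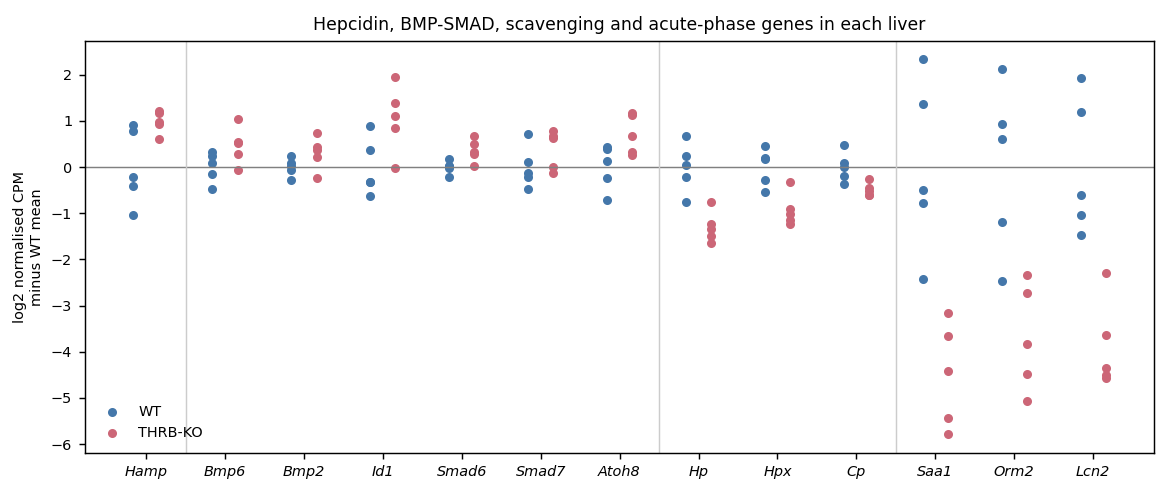
Each point is the log2 normalised CPM of 1 liver minus the WT mean, WT in blue and THRB-KO in red, for Hamp, BMP-SMAD genes, scavenging and ferroxidase genes, and acute-phase genes, separated by grey lines. Id1 and Atoh8 lie mostly above 0 in THRB-KO but overlap WT, Hp and Hpx lie below 0 in all THRB-KO livers, and Saa1 and Lcn2 do not overlap.

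Of the sensors and carriers of transferrin iron, none passed the threshold. Trf (ENSMUSG00000032554, chr9:103204001-103230444, minus strand), encoding the plasma iron carrier, was at 29400, 30600, 22300, 21300 and 25800 CPM in WT and 21500, 25400, 22000, 21000 and 23700 CPM in THRB-KO. In THRB-KO, 4 livers lay within the WT range and the other just under it (log2 fold change −0.19, SE 0.134, adjusted p = 0.595, edgeR). Tfr2 (ENSMUSG00000029716, chr5:137569840-137587481, plus strand), the hepatocyte receptor that senses transferrin saturation, was at 697, 578, 610, 657 and 591 CPM in WT and at 672, 517, 504, 496 and 534 CPM in THRB-KO. In THRB-KO, 4 livers were below all WT livers and replicate 1 lay within the WT range. The log2 fold change was −0.20 (SE 0.104, adjusted p = 0.425, edgeR), and without THRB-KO replicate 1 it was −0.29 and past the threshold (adjusted p = 0.139).

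Hfe (ENSMUSG00000006611, chr13:23702034-23710854, minus strand), the partner of the transferrin receptors in iron sensing, was at 38.6, 38.3, 40.1, 37.6 and 32.8 CPM in WT and at 39.6, 42.8, 27.6, 30.7 and 35.5 CPM in THRB-KO. The THRB-KO livers lay on both sides of the WT range (log2 fold change −0.09, SE 0.114, adjusted p = 0.799, edgeR). Tfrc (ENSMUSG00000022797, chr16:32608920-32632794, plus strand), the receptor that most cells use to take up transferrin iron, was at 8.93, 13.7, 18.9, 11.5 and 35.4 CPM in WT and at 9.34, 10.6, 14.8, 14.2 and 8.77 CPM in THRB-KO. WT replicate 5 stood above all other livers, and the log2 fold change of −0.62 (SE 0.352, adjusted p = 0.489, edgeR) was −0.20 without it. The same liver had the highest level of Marco and the highest summed Kupffer cell markers, a sum that includes Marco. That sum was 511 CPM, with Marco at 62.3 CPM, and WT replicate 3 followed at 467 CPM, with Marco at 13 CPM.

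Ferroportin and ferritin followed in the same way. Slc40a1 (ENSMUSG00000025993, chr1:45908068-45926523, minus strand), the iron exporter of hepatocytes and macrophages, was at 117, 212, 92.9, 154 and 153 CPM in WT and at 90.8, 142, 164, 203 and 89.0 CPM in THRB-KO. The ranges nearly coincided, and the log2 fold change of −0.08 (SE 0.273, adjusted p = 0.937, edgeR) turned positive without WT replicate 2 (0.09), THRB-KO replicate 1 (0.03) or THRB-KO replicate 5 (0.04). The 10 Kupffer cell markers, from macrophages that also express ferroportin, all had fitted changes below 0 with none called, and summed to 145 to 511 CPM in WT and 161 to 336 CPM in THRB-KO. Their part in the Slc40a1 and Tfrc values was not tested.

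Fth1 (ENSMUSG00000024661, chr19:9980598-9985098, plus strand), the ferritin heavy subunit that oxidises iron, was at 1010, 1050, 1080, 1130 and 1070 CPM in WT and at 1110, 1300, 1230, 1370 and 1240 CPM in THRB-KO. Of the THRB-KO livers, 4 were above the WT range. The log2 fold change was 0.23 (SE 0.089, adjusted p = 0.287, edgeR), a 1.17-fold difference that DESeq2 called (adjusted p = 0.0268). Ftl1 (ENSMUSG00000050708, chr7:45457944-45459884, minus strand), the light subunit that favours mineral formation, was at 296, 326, 306, 336 and 293 CPM in WT and at 297, 406, 364, 386 and 336 CPM in THRB-KO (log2 fold change 0.20, SE 0.096, adjusted p = 0.388, edgeR). Of the THRB-KO livers, 3 were above the WT range, and replicate 1 was the lowest THRB-KO liver for both subunits. Ftl1 shares 355 bases of exon with Gm10252 and 109 bases with Gm22133, and reads there were not assigned to it. The ratio of Fth1 to Ftl1 reads was 3.43 in WT and 3.51 in THRB-KO, between 3.19 and 3.73 over all livers, and on the log2 scale it differed by 0.0284 (exact permutation test, two-sided, p = 0.59, also adjusted over the 3 tests). Adding reads of the annotated ferritin pseudogenes, of which Ftl1-ps1 had the most with a mean of 119.7, gave 0.0254.

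**Figure D3:**
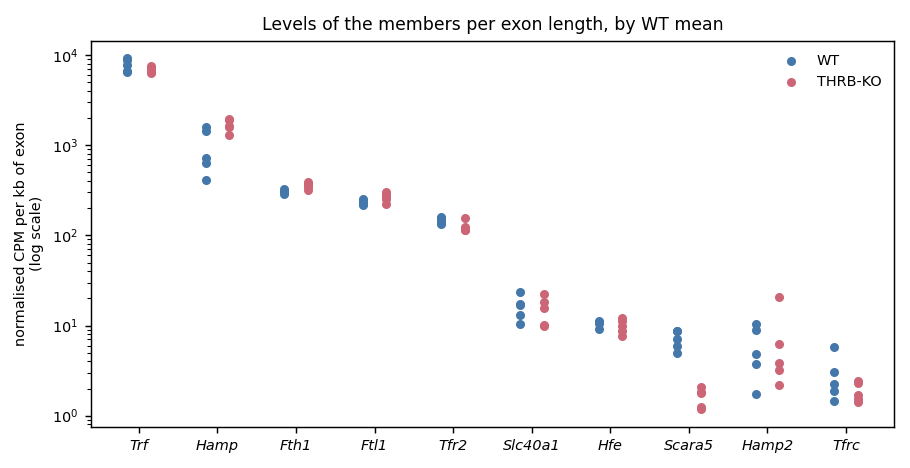
Normalised CPM per kb of merged exon (log scale) of the 10 members in each liver, WT in blue and THRB-KO in red, ordered by WT mean. Trf lies at 7790 and Tfrc at 2.86 CPM per kb in WT, and the genotypes are apart for Scara5.

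Per kb of exon, WT levels ran from 7790 ± 1250 CPM per kb for Trf through Hamp at 959 ± 522, Fth1 at 308 ± 12.1, Ftl1 at 232 ± 14 and Tfr2 at 145 ± 11.3 CPM per kb (SD, n = 5). The lower group was Slc40a1 at 16.2 ± 5.0, Hfe at 10.5 ± 0.775, Scara5 at 7.07 ± 1.71, Hamp2 at 5.91 ± 3.61 and Tfrc at 2.86 ± 1.71 CPM per kb. The WT ranges of Slc40a1 and Hfe, of Scara5 and Hamp2, and of Hamp2 and Tfrc overlapped, and other neighbours in this order did not. In THRB-KO, Scara5 was at 1.63 ± 0.389 CPM per kb, beside Tfrc at 1.87 ± 0.45 CPM per kb. The profiles nearest to that of Hamp, centred within genotype, were those of Cyp4f13, Qpct, Serpinf1, Idh2 and Cyp2c29 (root-mean-square distances 0.406 to 0.472 over 10 livers).

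Beyond the members, 8 lists held 83 iron genes, of which 77 were tested. Of these, 1 was higher and 3 were lower in THRB-KO, or 5.19% against 4.08% of all genes, a share near the background, and the median log2 fold change was 0.01. The 3 lower genes encode plasma proteins that the liver secretes. Hp, encoding haptoglobin, which captures free hemoglobin, was at 6820, 10500, 3920, 5700 and 7850 CPM in WT and at 2800, 3930, 2120, 2350 and 2620 CPM in THRB-KO. The ranges met at the lowest WT and the highest THRB-KO liver (log2 fold change −1.33, SE 0.247, adjusted p = 0.0216, edgeR).

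Hpx, encoding hemopexin, which captures free heme, was at 11200, 13400, 6780, 8030 and 11100 CPM in WT and at 4840, 7830, 4430, 4140 and 5190 CPM in THRB-KO. THRB-KO replicate 2 reached into the WT range (log2 fold change −0.93, SE 0.216, adjusted p = 0.0595, edgeR), and without THRB-KO replicate 3 the call was lost (−0.88, adjusted p = 0.157). Cp, encoding ceruloplasmin, the ferroxidase that helps load iron onto transferrin, was at 1560 ± 363 CPM in WT and 1090 ± 111 CPM in THRB-KO (SD, n = 5; log2 fold change −0.52, SE 0.149, adjusted p = 0.124, edgeR). Its call was lost without WT replicate 1, 2 or 5 or THRB-KO replicate 1, 3, 4 or 5 (adjusted p between 0.153 and 0.267). Without WT replicate 2, the log2 fold change of Cp was −0.38. Haptoglobin, hemopexin and ceruloplasmin are also known as acute-phase proteins. With the level of the acute-phase list as a covariate the log2 fold changes were −0.08 for Hp, 0.09 for Hpx and 0.11 for Cp, but that level did not overlap between genotypes, so the covariate and genotype cannot be told apart.

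Blvrb, encoding biliverdin reductase B, was the iron gene higher in THRB-KO. It was at 64.2, 56.2, 66.3, 58.8 and 50.3 CPM in WT and at 71.4, 86.0, 81.8, 99.3 and 86.1 CPM in THRB-KO. The genotypes did not overlap (log2 fold change 0.52, SE 0.0989, adjusted p = 0.0228, edgeR), and the call held with each liver left out, though not with the acute-phase covariate (0.26, adjusted p = 0.999). The heme oxygenase gene Hmox1 (−0.25, adjusted p = 0.526) and the other 11 genes of heme synthesis and breakdown did not pass the threshold in edgeR. Among these 11, Blvra, encoding biliverdin reductase A, was at −0.19 (adjusted p = 0.497, edgeR). None of the 5 tested erythroid markers passed it, with the 4 globin genes Hba-a1, Hba-a2, Hbb-bs and Hbb-bt fitted lower (−0.76 to −0.65) and Alas2 at 0.04, and they summed to 191 to 308 CPM in WT and 149 to 232 CPM in THRB-KO.

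The remaining lists held no call. The largest fitted changes were 0.09 for Glrx3 among 5 tested storage and chaperone genes (adjusted p = 0.70), 0.17 for Ireb2, which encodes iron regulatory protein 2 (adjusted p = 0.616), and −0.29 for Hscb among 15 genes of mitochondrial iron and iron-sulfur clusters (adjusted p = 0.457, edgeR for all). The 3 tested cholangiocyte markers were not called either and summed to 23.4 to 44.5 CPM in WT and 22.7 to 27.2 CPM in THRB-KO.

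**Figure D4:**
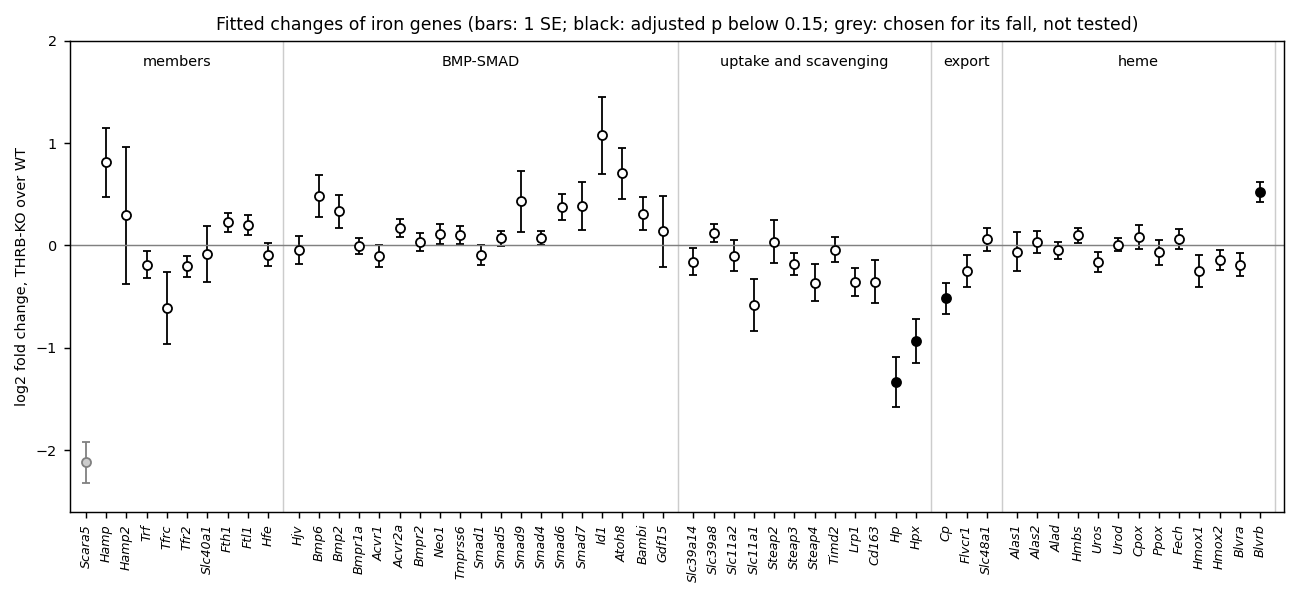
Fitted log2 fold changes of THRB-KO over WT with 1 SE for the members and for the BMP-SMAD, uptake, export and heme lists, with genes past an adjusted p of 0.15 in black and Scara5, which was chosen for its fall and not tested, in grey at −2.12. Hp at −1.33, Hpx at −0.93, Cp at −0.52 and Blvrb at 0.52 are black.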

How the data were processed

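Livers of 5 WT and 5 THRB-KO mice were grouped by the genotype in the labels. The authors mapped stranded mRNA libraries on mm10 (GRCm38) with HISAT2 2.2.1 and counted reads per Ensembl gene with HTSeq 0.9.1, without strand, dropping reads that mapped to several places or genes. What they deposited for each library is a raw count for 55401 genes. The table of the authors' own edgeR 3.36.0 comparison (fold changes, test statistics and p-values) was not used.

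The filter asked for 1 CPM or more in 5 or more libraries. The 12234 genes that passed were fitted together in edgeR 4.0.16 (R 4.3.3) with TMM factors and the robust quasi-likelihood F-test. The p-values were adjusted by Benjamini-Hochberg over all genes tested, with thresholds of 0.15, after the study, and 0.05, past which 165 genes lay. A standard error is the size of the log2 fold change over the root of its F statistic. Normalised CPM use TMM-scaled library sizes, and sums and ratios were compared by exact permutation of the genotypes, where the smallest p that 5 against 5 allow is 0.0079. The fit was tested on simulated data first.

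Members, gene lists and tests were chosen with earlier results of these data known. Named genes are the members, Thrb, list genes past the threshold, the largest fitted change of each iron list without one, and the 5 profiles nearest to Scara5 and to Hamp. Other genes in the text (relatives and neighbours of Scara5, further BMP-SMAD, heme and marker genes) were chosen after their values were seen. Exon positions and UTRs come from GENCODE M21 on GRCm38, in another release than was counted on. No pair of the 45 pairs of libraries held identical counts. Each result was recomputed with DESeq2 1.42.0, with upper-quartile or RLE factors, without the filter or with filterByExpr, with the replicate number as a block, with the level of acute-phase genes as a covariate, and without each liver in turn.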

Additional observations from a re-analysis of the deposited data

Results flagged for a closer look

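The 48 groups of 5 livers checked covered the members, called iron list genes, tested sums and ratios, and summed acute-phase and marker lists. Of these groups, 3 held a liver whose gap to its nearest neighbour was large for the range of the group. By chance about 1 in 20 groups is flagged, or 2.4 of 48. Hamp2 was at 12.2 CPM in THRB-KO replicate 2 and at 1.29 to 3.61 CPM in the other THRB-KO livers. Tfr2 was at 672 CPM in THRB-KO replicate 1 and at 496 to 534 CPM in the others. Hpx was at 7830 CPM in THRB-KO replicate 2 and at 4140 to 5190 CPM in the others.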

How the results depend on the processing

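The 9 members other than Scara5 kept their side of the threshold under the alternatives run, except Fth1 under DESeq2 (log2 fold change 0.23, now past it) and Tfr2, whose log2 fold changes ran from −0.29 to −0.16 with a liver left out. Leaving out a liver gave −0.61 to 0.59 for Hamp2, −0.27 to 0.094 for Slc40a1 and 0.713 to 1.2 for both hepcidin genes summed. It gave 222 to 665 genes called, 67 to 251 higher and 155 to 418 lower, 0 to 1 members other than Scara5, 1 to 2 iron list genes higher and 1 to 4 lower, 0 to 1 BMP-SMAD genes and 6 to 14 acute-phase genes lower. DESeq2 called 885 genes, 401 higher and 484 lower, with 1 member other than Scara5, 4 iron list genes higher and 3 BMP-SMAD genes. With the acute-phase covariate, whose level did not overlap between genotypes, 7 genes were called, 0 higher and 7 lower, with 0 iron list genes higher, 0 lower and 0 acute-phase genes. Signs then turned for Trf (0.23), Slc40a1 (0.12), Hfe (0.10), Hpx (0.093), Cp (0.11) and Smad7 (−0.20). The cause of these shifts was not tested.

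Same-numbered livers did not deviate together over all genes tested, with correlations of −0.202 to 0.00907. Whether the numbers pair the samples is not settled by this, since an effect shared by few genes would hardly move these values. With the replicate block, 348 genes were called, 107 of them higher, with 2 iron list genes higher and 1 BMP-SMAD gene, Atoh8 (0.71, adjusted p = 0.0316, edgeR). With pairs by replicate number, the summed hepcidin difference stayed 0.972 and the exact sign-flip p was 0.062. No other call changed under the block among the members and named iron genes.

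The log2 fold changes fitted for Fth1, Ftl1 and Tfr2 were small, at 0.23, 0.20 and −0.20. A p above the threshold does not show that levels were alike. Hamp2, Tfrc, Bmp6 and Id1 were low, so their values also carry counting error.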

Other observations

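The IRE letters with a stem were also carried by transcripts outside the members. Of the genes with such an element in the 5′ UTR, 23 were tested and 0 passed an adjusted p of 0.15 in edgeR, with a median log2 fold change of 0.08. Of those with one in the 3′ UTR, 87 were tested and 7 passed, 4 of them higher in THRB-KO, with a median of 0.01. Over all genes, 4.08% passed, 1.51% higher and 2.57% lower. These lists rest on letters and a paired upper stem alone, and most of their members are not known as iron-regulated transcripts.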
